A study of Mus musculus with 16 samples.

Results

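The BCL2 family is the set of proteins that decides at the mitochondrial outer membrane whether a cell survives or dies. The genes described here are 10 members of that family, chosen by name and matched by gene symbol, and all 10 were found among the 24421 genes of the tumour tables and the 51912 entries of the table of normal tissues. They comprise 4 survival genes (Bcl2, Bcl2l1, Bcl2l2 and Mcl1), 2 effector genes (Bak1 and Bok) and 4 BH3-only genes (Bcl2l11, Bid, Bad and Bmf). The normal table held 2 entries under the symbol Bcl2l2, and the entry that GENCODE also names Bcl2l2 was used, since GENCODE names the other one Pabpn1. In the tumour and comparator tables Bcl2l2 and Pabpn1 have separate rows and counts but carry the same Ensembl identifier, that of Pabpn1, and Bcl2l2 was taken there by its symbol. All tumour and comparator values of Bcl2l2 rest on that choice, and how reads were divided between these genes was not given in the sources used here. Polyadenylated RNA had been sequenced from 16 libraries of C57BL/6 mouse organoids, in 6 groups. Ctr (n = 3) and Lung-Ctr (n = 2) were tumour organoids of genotype TMP, which stands for Trp53-/-, Myc and sgCdkn2a. LMP1 (n = 2) and Lung-LMP1 (n = 3) were tumour organoids of genotype TMPL, which carries the same alterations together with LMP1, a membrane signalling protein of Epstein-Barr virus. Loss of Trp53, the Myc gene and the guide against Cdkn2a were therefore common to all 4 tumour groups. The tumours had grown in recipient mice after transplantation into the nasopharynx, and Normal_nasopha (n = 3) and Normal_lung (n = 3) were untreated organoids of normal nasopharynx and lung. All TMP samples are described as primary and all TMPL samples as metastasis, although the design text lists both kinds for both genotypes, so groups are named by their titles and the prefix Lung is not read as a site. The sources used here give no ages, no promoter for Myc or LMP1 and no number of clones.

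Background for these genes is well established. The survival proteins hold the effectors in check, the BH3-only proteins bind survival proteins or activate effectors when a cell is stressed, and freed effectors open the outer membrane so that cytochrome c leaves it. In epithelial cells MCL1 and BCL-XL, the product of Bcl2l1, are the survival proteins most often relied on, MYC is known to prime cells for death through this pathway, and LMP1 is known to activate NF-kB, whose targets include survival genes. BAK1 is a membrane-resident effector, and BOK is a related protein that can act without the others. BIM (from Bcl2l11) binds all the survival proteins, BID links death receptors to mitochondria after it is cut by caspase-8, BAD answers to growth-factor signalling and BMF to loss of attachment.

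RNA levels were read as scaled counts (CPM, each count divided by its library's total and multiplied by 1000000), and levels of different genes were compared only as CPM per kilobase of exon. Total counts ran from 12535166 to 21737184 a library, so that a floor of 3 counts lies at 0.138 to 0.239 CPM, and floors cover counting error only. All 10 genes passed the filter on low counts in every fit. On GRCm38 (mm10, GENCODE vM21) the genes followed most closely lie at chr1:106538178-106714274 (Bcl2, minus strand), chr17:27019810-27029009 (Bak1, minus strand), chr1:93685660-93695764 (Bok, plus strand), chr19:6941861-6951899 (Bad, plus strand), chr3:95658788-95663176 (Mcl1, plus strand) and chr2:152780668-152831728 (Bcl2l1, minus strand), all protein-coding. A further set of 3 normal columns, deposited beside Ctr, is called the normal comparator here: they are headed as lung in a table deposited as a comparison with nasopharynx, and the labels do not settle which tissue they are. Across 22573 shared symbols, their log2 counts had Pearson r of 0.981 to 0.982 with the same-numbered Normal_nasopha library and of 0.894 to 0.911 with Normal_lung, so the comparator and Normal_nasopha are not treated as independent. The lung epithelial marker list (7 genes, such as Sftpc and Nkx2-1) summed to 42.4 to 185.8 CPM in the comparator, 37.4 to 167.8 in Normal_nasopha, 52330 to 62140 in Normal_lung and at most 2.16 in the tumour libraries, where Nkx2-1 was at 0 in all 10. Both kinds of table also count some genes differently: the comparator held 2.32 to 2.40 times the Bak1 count of the same-numbered Normal_nasopha library, 1.05 to 1.16 times its Bcl2l2 count, 0.900 to 1.08 times its Bcl2 count, and for the other members 0.807 to 0.975 times, where the median over genes was 0.878. Bak1, Bid and Bad share exonic sequence with a gene on the opposite strand (Ggnbp1, Bcl2l13 and Gpr137), Bcl2 with an antisense transcript, and Bcl2l2 with Gm20521 on the same strand, and the sources used here do not say whether strand was used in counting. Reads of such partners cannot be told apart from those of the member.

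The start regions of 1 survival gene, 1 effector and 1 BH3-only gene that were called in the comparisons are shown first. RefSeq gave 16 promoter windows for the 10 genes (GRCm38.p6, the 250 bases before each annotated start), of which 9 held no exon annotated by GENCODE. The windows printed are those of Bcl2, the survival gene that differed between LMP1 and Ctr (chr1:106714291-106714540, minus strand), of Bok, the effector with the largest difference from the normal comparator (chr1:93685325-93685574, plus strand), and of Bad, the BH3-only gene that was lower in every tumour group (chr19:6941611-6941860, plus strand). Each is written 5′ to 3′ on the strand of its gene, and capitals mark every match to the GC box GGGCGG or its reverse complement CCGCCC.
Bcl2: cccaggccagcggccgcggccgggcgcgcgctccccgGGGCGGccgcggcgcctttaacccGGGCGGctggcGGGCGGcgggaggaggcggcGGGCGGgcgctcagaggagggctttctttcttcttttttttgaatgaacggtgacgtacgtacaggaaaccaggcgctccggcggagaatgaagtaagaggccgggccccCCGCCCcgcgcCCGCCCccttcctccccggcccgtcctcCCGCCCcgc
Bok: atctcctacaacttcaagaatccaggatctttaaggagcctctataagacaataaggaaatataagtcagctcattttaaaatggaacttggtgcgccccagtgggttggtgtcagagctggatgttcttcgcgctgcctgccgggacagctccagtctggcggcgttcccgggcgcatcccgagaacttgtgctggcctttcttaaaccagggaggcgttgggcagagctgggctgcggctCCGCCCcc
Bad: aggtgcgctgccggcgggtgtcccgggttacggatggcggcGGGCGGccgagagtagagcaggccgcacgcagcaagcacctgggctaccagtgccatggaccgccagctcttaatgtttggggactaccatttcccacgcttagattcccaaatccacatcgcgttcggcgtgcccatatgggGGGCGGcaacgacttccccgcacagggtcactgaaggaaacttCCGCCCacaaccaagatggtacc
The Bcl2 window held 7 GC boxes, the Bad window 3 and the Bok window 1. A GC box was found in 8 of the 16 windows, against 32.7% of the 32851 windows of all genes. By gene, 7 of the 10 had at least 1 window with a GC box, and the share of all genes was not computed. The E-box CACGTG, the element bound by MYC and its partner MAX, was in 0 of the 16 windows and in 6.02% of all windows. An NF-kB-like match, GGGNNNNNCC on either strand, was in 12 of the 16 windows and 45.8% of all, with 5 of its 24 matches overlapping a GC box. GC content was 74.8% in the Bcl2 window, the highest of the 16, against a median of 52.4% over all windows. These are matches of letters and say nothing of binding.

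Mcl1, which encodes a short-lived survival protein, was the most abundant of the 10 genes per kilobase in all 6 groups, including both normal tissues, and in the comparator. Its level was 359, 264 and 273 CPM in Ctr, 327 and 334 in Lung-Ctr, 293 and 295 in LMP1, and 260, 254 and 225 in Lung-LMP1. The comparator libraries read 316, 327 and 223 CPM. Replicates 1 and 2 lay within the span of the tumour libraries, and replicate 3 lay just below the lowest of them. The mean differed by a factor of 1.34 between the highest tumour group, Lung-Ctr, and the lowest, Lung-LMP1, and the order between them was Ctr, then LMP1. Neighbouring ranges overlapped for Lung-Ctr and Ctr and for Ctr and LMP1, while both LMP1 libraries lay above all 3 Lung-LMP1 libraries. Mcl1 also supplied most of the summed survival RNA per kilobase: 80.6 ± 2.01% of the 4-gene sum in Ctr (SD, n = 3), 78.0 ± 0.152% in LMP1 (n = 2), 74.9 ± 5.35% in Lung-Ctr (n = 2), 76.9 ± 5.40% in Lung-LMP1 (n = 3) and 69.1 ± 6.78% in the comparator (n = 3). In Normal_lung the share was lowest, at 58.7 ± 1.87% (SD, n = 3), and Bcl2l1 there made up 31.0 ± 1.93%. These shares depend on gene length: with the longest transcript in place of all exons, the Mcl1 share was 74.5% in Ctr and 46.55% in Normal_lung, and that of Bcl2l1 rose from 7.54% to 12.4% in Ctr. The order Mcl1 before Bcl2l1 held in the mean share of each group with either length. It was narrow in Normal_lung with the longest transcript, where Bcl2l1 made up 43.86%.

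**Figure D1:**
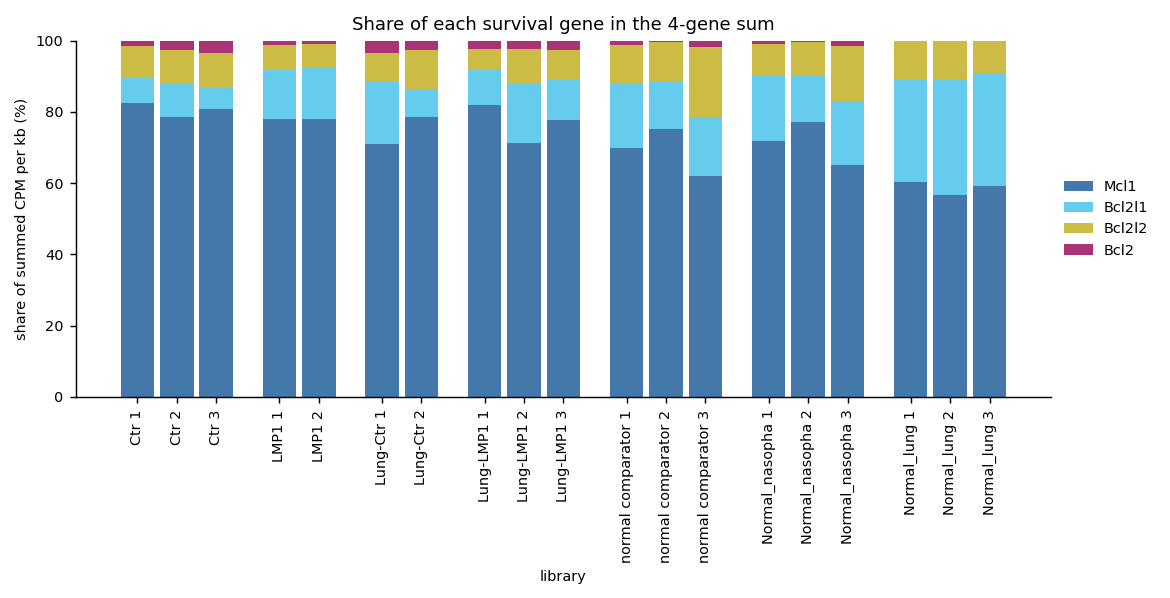
Share of Mcl1, Bcl2l1, Bcl2l2 and Bcl2 in their summed CPM per kilobase of exon (vertical axis, percent), 1 stacked bar for each library of the 6 groups and the comparator. Mcl1 fills the largest part of every bar, from 56.6% to 60.3% in Normal_lung and from 78.5% to 82.4% in Ctr, and Bcl2 is nearly invisible in Normal_lung (0.12% on average).

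Bcl2, the founding survival gene, was the scarcest survival gene per kilobase in all 6 groups and in the comparator. Its libraries read 18.4, 24.1 and 31.3 CPM in Ctr, 42.6 and 30.5 in Lung-Ctr, 12.7 and 10.3 in LMP1, and 20.4, 22.03 and 20.4 in Lung-LMP1. Both LMP1 libraries lay below all 8 other tumour libraries. The comparator read 12.97, 5.22 and 16.1 CPM, overlapping LMP1 only. Per kilobase, the Bcl2 level in Ctr was 2.69 ± 0.708 CPM (SD, n = 3) against 87.3 for Mcl1.

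Bcl2l1, the gene of BCL-XL, varied more than Mcl1 within each tumour group, as SD relative to the mean, but not within Normal_nasopha or Normal_lung. Its level was 41.5, 42.9 and 27.2 CPM in Ctr and 69.4 and 72.5 in LMP1, without overlap. In Lung-Ctr the 2 libraries read 106.3 and 42.7 CPM, the highest of all tumour libraries and a value like those of Ctr, and in Lung-LMP1 they read 42.9, 80.0 and 43.3. The comparator, at 109.1, 75.9 and 81.4 CPM, lay above all Ctr and LMP1 libraries. Bcl2l2, which encodes the survival protein BCL-W, read 50.7, 41.1 and 42.1 CPM in Ctr, 49.4 and 62.0 in Lung-Ctr, 34.9 and 32.6 in LMP1 and 23.9, 46.0 and 31.5 in Lung-LMP1. The comparator read 64.7, 63.3 and 92.6 CPM, above all 10 tumour libraries.

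Of the effectors, Bak1 was higher in each TMPL library than in any TMP library. Its libraries read 53.2, 37.9 and 50.8 CPM in Ctr, 47.6 and 44.3 in Lung-Ctr, 79.1 and 79.3 in LMP1, and 76.0, 66.2 and 64.9 in Lung-LMP1. The comparator, at 53.8, 84.0 and 42.2 CPM, spanned both genotypes. Bok read 44.0, 28.6 and 89.0 CPM in Ctr, 50.4 and 34.3 in Lung-Ctr, 54.7 and 63.7 in LMP1, and 62.4, 45.3 and 51.1 in Lung-LMP1. The comparator libraries held only 15.0, 1.87 and 4.69 CPM, so every tumour library was above every comparator library. Per kilobase, Bok was second only to Mcl1 in Ctr (29.3 ± 17.0 CPM, SD, n = 3), with a range that overlapped that of Bid, the next gene, and eighth of the 10 in the comparator (3.91 CPM).

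Among the BH3-only genes, the highest tumour library held 1.70 times the CPM of the lowest for Bad, 2.07 times for Bid, 4.58 times for Bcl2l11 and 7.88 times for Bmf. Bid read 79.4, 88.01 and 84.7 CPM in Ctr, 83.2 and 42.6 in Lung-Ctr, 67.3 and 88.03 in LMP1, and 73.7, 59.7 and 65.8 in Lung-LMP1. The comparator, at 32.3, 43.8 and 42.7 CPM, overlapped the tumour libraries only at Lung-Ctr replicate 2. Bcl2l11 ran from 51.8 to 177.3 CPM within Ctr, with replicate 1 the highest of all 10 tumour libraries, and from 38.7 to 87.5 CPM in the other tumour groups. Its comparator libraries read 30.5, 26.7 and 58.0 CPM. Bad, the scarcest after Bcl2 and Bmf per kilobase in each tumour group, read 8.81, 8.72 and 11.3 CPM in Ctr, 10.1 and 10.96 in Lung-Ctr, 14.6 and 13.7 in LMP1, and 9.62, 9.12 and 8.62 in Lung-LMP1. The comparator stood apart at 33.0, 32.6 and 30.2 CPM. Bmf was lowest of all, from 0.904 to 7.13 CPM over the tumour libraries, where the lowest and the highest were both Ctr, and its comparator libraries read 5.43, 6.69 and 37.4 CPM, so its mean there rests on replicate 3.

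**Figure D2:**
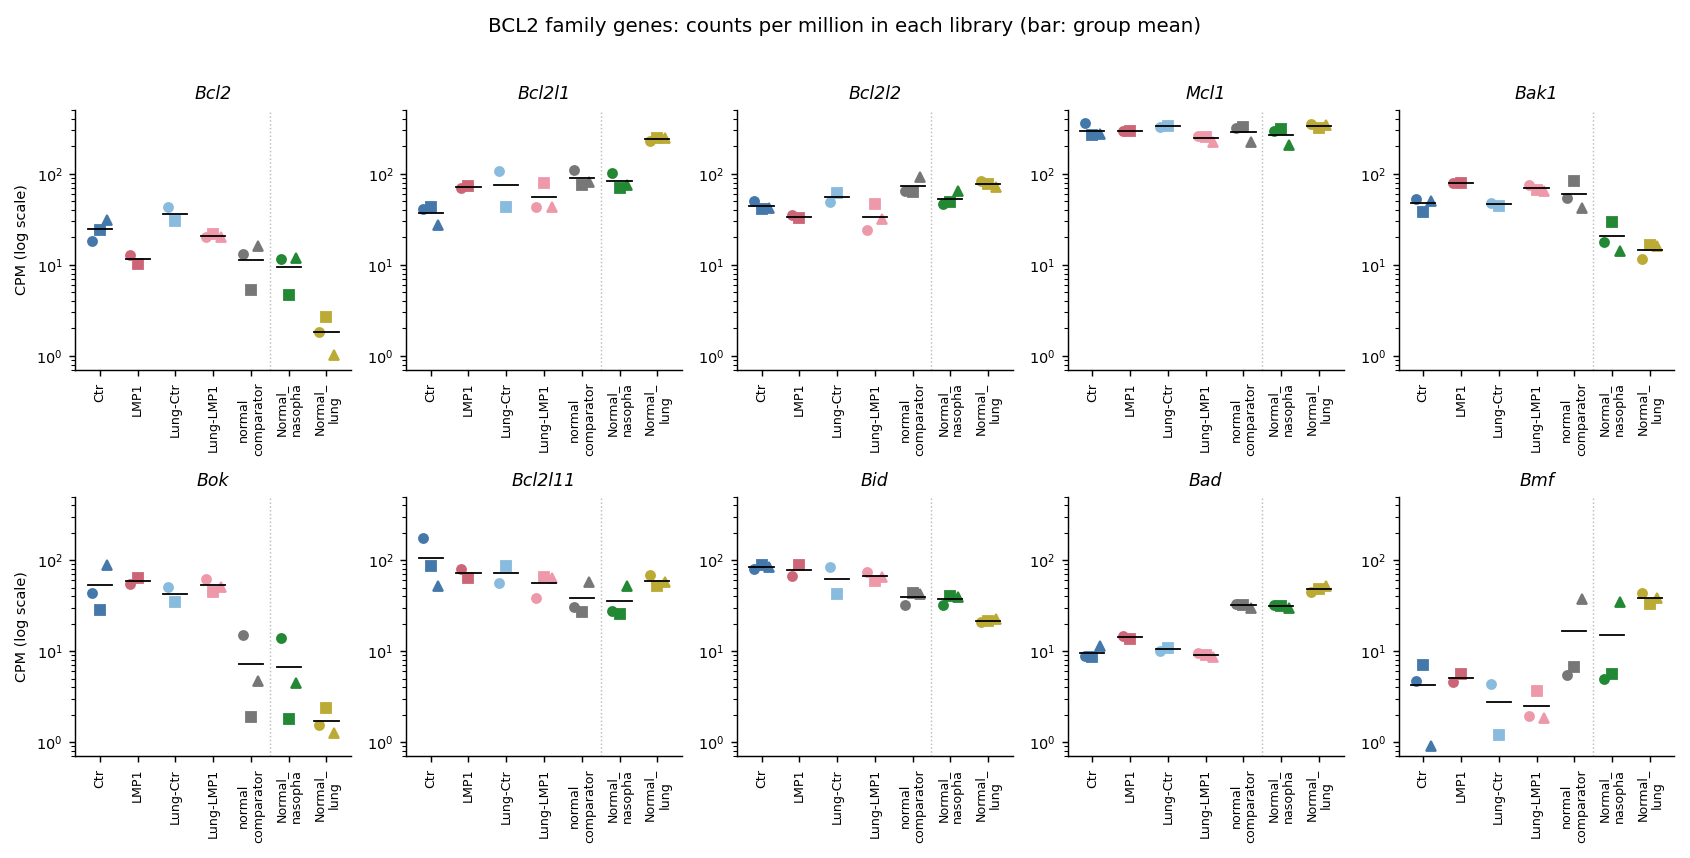
CPM (vertical axis, log scale) of the 10 genes in each library of the 4 tumour groups, the normal comparator and the 2 normal tissues. Circles, squares and triangles are replicates 1, 2 and 3, and bars are group means. The dotted line parts the tables that count genes in different ways. Bok sits above its comparator libraries and Bad below them in all 4 tumour groups, and Mcl1 stays between 206 and 359 CPM in all libraries drawn.

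LMP1 against Ctr asks how TMPL differs from TMP among the organoids without the Lung prefix. Bcl2 was lower in LMP1, with a log2 fold change of -1.12 ± 0.27 (SE; edgeR adjusted p = 0.0277), and Bak1 was higher, by 0.72 ± 0.18 (edgeR adjusted p = 0.0306). These were 2 of the 10 genes, while 16.4% of the 13460 genes tested passed the same threshold. The ranges of the groups did not overlap for 5 of the 10 (Bak1, Bcl2l1 and Bad higher, Bcl2 and Bcl2l2 lower), against 56.3% of all genes tested, so non-overlap was no more frequent among the members than among all genes. Bcl2l1 differed by 0.91 ± 0.40 (SE; edgeR adjusted p = 0.151) and Bad by 0.53 ± 0.24 (edgeR adjusted p = 0.16), neither past the threshold. By role, 1 of 4 survival genes and 1 of 2 effectors were called, and 0 of the 4 BH3-only genes, of which 0 had an unadjusted p under 0.05. In the authors' deposited table of this comparison, Bcl2 (log2 fold change -1.13), Bak1 (0.72) and Bcl2l1 (0.91, adjusted p = 0.0047) were called. Over all genes, 3791 of the 13695 with an adjusted p in that table were called. The labels do not say whether replicates are separate animals or cultures, so all p-values here measure only the spread between these samples.

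Both calls rest on few libraries. The Bcl2 call was lost without LMP1 replicate 1 or 2 (edgeR adjusted p = 0.149 and 0.206), Ctr replicate 3 (0.06) or Lung-LMP1 replicate 3 (0.0539). The Bak1 call was lost without LMP1 replicate 1 or 2 (edgeR adjusted p = 0.178 and 0.175), Ctr replicate 2 (0.0506) or 3 (0.05) or Lung-LMP1 replicate 3 (0.0512), and a correction for length and GC content ended both calls, with Bcl2 at -1.05 (adjusted p = 0.068) and Bak1 at 0.47 (0.181) on the log2 scale. Both were also lost with only the groups compared in the fit (edgeR adjusted p = 0.064 and 0.0661). Sums of cell type markers also differed in the same contrast. The 9 mesenchymal markers summed to 1082 and 1469 CPM in LMP1, with only Thy1 at 0, against 1.62, 528 and 2.64 in Ctr and at most 6.82 in both Lung groups. Vim, at 1184 CPM on average in LMP1, made up most of that sum. It was not called here (edgeR adjusted p = 0.29), nor were the other mesenchymal markers that were tested. The 6 basal and squamous epithelial markers summed to 136.5 and 203 CPM in LMP1, while no other tumour library summed to less than 1724. Each of the 6 was called lower in LMP1, at edgeR adjusted p from 0.00245 (Lamb3) to 0.0373 (Krt5). Of the epithelial markers, Epcam, Cdh1, Cldn4 and Esrp1 were called lower too (edgeR adjusted p = 0.0224, 0.0165, 0.00431 and 0.00467), and the others were not called. In the Ctr library with 528 CPM of mesenchymal markers, replicate 2, Bcl2 lay between the other Ctr values and Bak1 was the lowest of the 3. The part of these markers in the Bcl2 and Bak1 results was not tested, and in bulk RNA fewer cells of a type and less RNA per cell cannot be told apart.

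Lung-LMP1 against Lung-Ctr sets the same genotypes side by side among the organoids with the Lung prefix. By edgeR, 0 of the 10 genes passed the threshold, as did 0% of all 13460 genes tested. At an unadjusted p under 0.05, 4 members were counted: Bak1 (log2 fold change 0.64 ± 0.19 SE), Bcl2 (-0.75 ± 0.26), Bcl2l2 (-0.67 ± 0.26) and Mcl1 (-0.37 ± 0.16), with edgeR adjusted p of 0.16, 0.205, 0.239 and 0.286. DESeq2 called 1 of them, Bak1, at an adjusted p of 0.0416, and over all alternatives that adjusted p ran from 0.0416 to 0.423. The share of all genes at an unadjusted p under 0.05 was not computed in any comparison. Counts of members or listed genes at that level are therefore not read as results about them. The group ranges did not overlap for 5 of the 10 genes (Bak1 higher, and Bcl2, Bcl2l2, Mcl1 and Bad lower), against 33.4% of all genes tested. In contrast to LMP1, mesenchymal markers summed to at most 2.27 CPM in Lung-LMP1 and 6.82 in Lung-Ctr, with 4 to 7 of the 9 at 0 in each library.

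The difference between these genotype effects was tested as an interaction. It passed for 0 of the 10 members by edgeR, with 0 at an unadjusted p under 0.05 and 0 by DESeq2, against 0.892% of all genes tested by edgeR. For Bak1 the interaction was -0.08 ± 0.26 (SE; edgeR adjusted p = 0.929) and for Bcl2 0.37 ± 0.38 (edgeR adjusted p = 0.696). The widest was that of Bcl2l1, -1.29 ± 0.57 (SE; edgeR adjusted p = 0.323), whose genotype difference was 0.91 without the Lung prefix and -0.38 with it. These standard errors leave room for sizeable differences in either direction.

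Lung-Ctr against Ctr, within TMP, gave 0 of the 10 genes past the threshold by edgeR and 0 by DESeq2, and 0% of all genes tested by edgeR. Bcl2l1 (1.06 ± 0.40 SE) and Bcl2 (0.63 ± 0.26) had an unadjusted p under 0.05, both with an edgeR adjusted p of 0.915. The ranges of the groups overlapped for all 10 genes, and the share of all genes with overlapping ranges was not computed here. Lung-LMP1 against LMP1, within TMPL, likewise gave 0 of 10 by edgeR, where 10.1% of all genes passed. Bcl2 came closest, with a log2 fold change of 1.0 ± 0.27 (SE; edgeR adjusted p = 0.0522) and an unadjusted p under 0.05, the only such member. The group ranges did not overlap for 5 of the 10 genes (Bcl2 higher, and Mcl1, Bak1, Bad and Bmf lower). The share of all genes without overlap was not computed for this comparison, so that count is not read as a result about the members. DESeq2 called Bcl2 at an adjusted p of 0.00929, and over all alternatives its adjusted p ran from 0.00929 to 0.291. It passed by edgeR without Ctr replicate 1 (adjusted p = 0.0347), Ctr replicate 3 (0.0404) or Lung-Ctr replicate 2 (0.0447). In the authors' deposited table of this comparison Bcl2 was the only member called, with a log2 fold change of 0.99. Over all genes, 3733 of the 14262 with an adjusted p in that table were called. With only the groups compared in the fit Bcl2 passed by edgeR too (adjusted p = 0.0207). Cell type markers differed in the same contrast: Vim, a mesenchymal marker, was lower in Lung-LMP1 (-11.45 ± 2.95 SE, edgeR adjusted p = 0.0429), and the basal markers Krt5 (7.30 ± 1.88, adjusted p = 0.043) and Trp63 (6.32 ± 1.11, adjusted p = 0.0121) were higher. Their part in the Bcl2 difference was not tested.

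**Figure D3:**
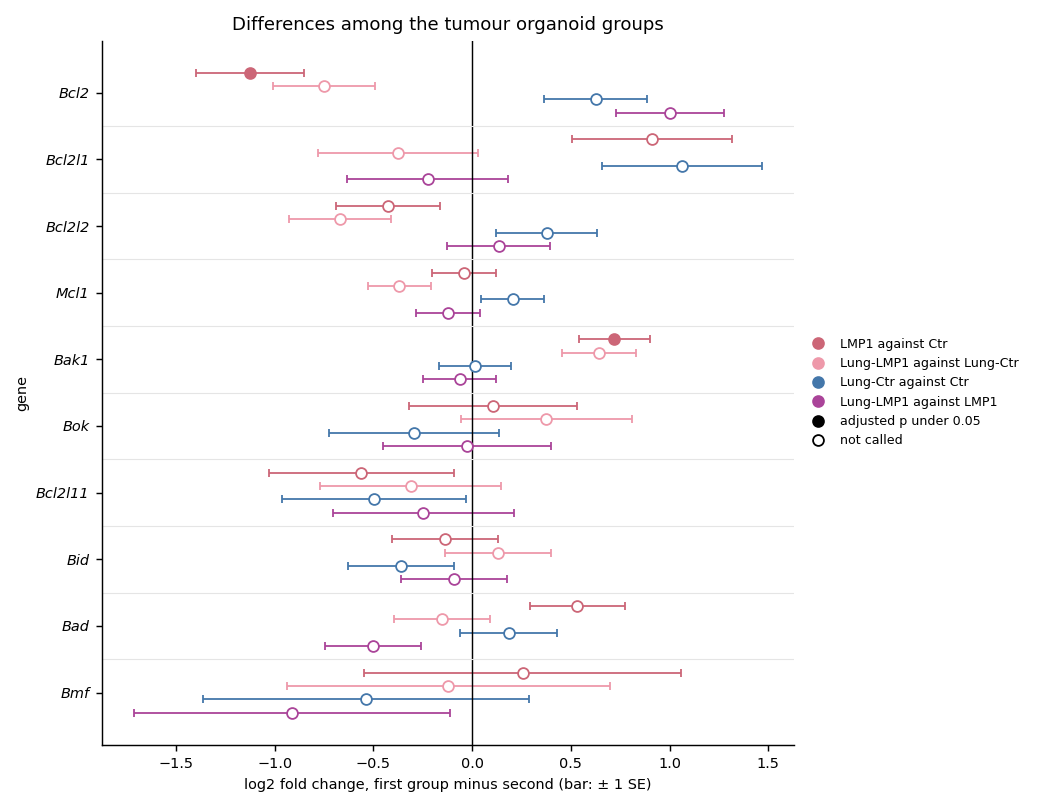
Log2 fold changes of the 10 genes (horizontal axis, first group minus second, bars ± 1 SE) in the 4 comparisons among tumour groups. Filled points passed an edgeR adjusted p of 0.05: only Bcl2 (-1.12) and Bak1 (0.72) in LMP1 against Ctr are filled. The comparisons share groups with one another.

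Each tumour group was then set against the normal comparator, in a fit of 13 libraries and 14096 genes. The 4 comparisons share the comparator columns, so their values stand side by side and are not separate evidence. Bok was higher and Bad lower in all 4 tumour groups, and no other member was called in all 4. Bmf had wider fold changes than Bad, from -1.74 to -2.69, but was called by edgeR only in Lung-LMP1. For Bok the log2 fold change was 2.84 ± 0.66 in Ctr (SE; edgeR adjusted p = 0.00811), 2.99 ± 0.70 in LMP1 (0.0122), 2.53 ± 0.69 in Lung-Ctr (0.0222) and 2.92 ± 0.66 in Lung-LMP1 (0.00926). For Bad it was -1.81 ± 0.21 in Ctr (SE; edgeR adjusted p = 0.000287), -1.22 ± 0.24 in LMP1 (0.00555), -1.63 ± 0.24 in Lung-Ctr (0.00145) and -1.77 ± 0.21 in Lung-LMP1 (0.000788).

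In Ctr against the comparator 6 of the 10 genes were called, against 35.1% of all genes tested. Bok, Bid (1.005 ± 0.25 SE, edgeR adjusted p = 0.01) and Bcl2l11 (1.36 ± 0.44, adjusted p = 0.0321) were higher. Bad, Bcl2l1 (-1.34 ± 0.35, adjusted p = 0.014) and Bcl2l2 (-0.80 ± 0.25, adjusted p = 0.0265) were lower. Of the survival genes Mcl1 differed by -0.04 ± 0.18 (edgeR adjusted p = 0.89) and Bcl2 by 1.03 ± 0.37 (edgeR adjusted p = 0.0508). The calls of Bok, Bid and Bad held in all 19 alternatives, although the length and GC correction brought Bad to its smallest value there, -0.91. That correction ended the calls of Bcl2l1 (-0.78, adjusted p = 0.11) and Bcl2l2 (-0.47, adjusted p = 0.16). Leaving out 1 library ended the Bcl2l1 call without Ctr replicate 3 (adjusted p = 0.0532), the Bcl2l2 call without Ctr replicate 2 or 3 or comparator replicate 3 (0.0819, 0.0718 and 0.113) and the Bcl2l11 call without Ctr replicate 1 or comparator replicate 1 or 2 (0.145, 0.0848 and 0.104). The Bcl2l2 and Bcl2l11 calls were also lost with only these groups in the fit (0.0551 and 0.0868). Without Ctr replicate 1 or comparator replicate 3, Bcl2 was called higher (adjusted p = 0.0434 and 0.0291), and without comparator replicate 1 Bmf was called lower (0.0473).

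LMP1 against the comparator called 4 of the 10 genes, against 28.2% of all genes tested: Bok and Bid (0.92 ± 0.27 SE, edgeR adjusted p = 0.0283) were higher, and Bad and Bcl2l2 (-1.18 ± 0.28, adjusted p = 0.0135) were lower. All 4 calls were lost without either LMP1 library, with edgeR adjusted p from 0.0621 to 0.197, a fit in which the remaining library is assumed to vary like the other groups. The Bid call was also lost without any 1 of the 3 comparator libraries (adjusted p = 0.0775, 0.0536 and 0.0591), and the Bad call with the length and GC correction (-0.61, adjusted p = 0.117). With only these groups in the fit the Bok and Bid calls were lost (0.059 and 0.0772). Bcl2 differed from the comparator by -0.04 ± 0.41 in LMP1 (SE; edgeR adjusted p = 0.949).

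Lung-Ctr against the comparator called 3 of the 10, against 27.4% of all genes tested: Bok and Bcl2 (1.65 ± 0.41 SE, edgeR adjusted p = 0.0142) were higher and Bad was lower. Without Lung-Ctr replicate 1 the Bcl2 and Bok calls were lost (adjusted p = 0.0879 and 0.0962), and without comparator replicate 3 that of Bok (0.0648). Bid, at 0.64 ± 0.27 (SE; edgeR adjusted p = 0.0961), was 1.05 and called without Lung-Ctr replicate 2 (0.0226), and 0.07 without replicate 1. Bmf was called without comparator replicate 1 (0.0484). The length and GC correction took Bad to -0.76 (adjusted p = 0.0793) and Bid past the threshold (0.99, 0.0331), and with only these groups in the fit all 3 calls were lost (0.0587 to 0.116).

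Lung-LMP1 against the comparator called 5 of the 10, against 32% of all genes tested. Bok and Bid (0.79 ± 0.25 SE, edgeR adjusted p = 0.0324) were higher, and Bad, Bcl2l2 (-1.09 ± 0.25, adjusted p = 0.00911) and Bmf (-2.69 ± 0.90, adjusted p = 0.0409) were lower. The calls of Bok, Bad and Bcl2l2 held in all 19 alternatives. That of Bmf held in 9 of 19 and rested on 1 library: without comparator replicate 3 its log2 fold change was -1.25 (adjusted p = 0.26). It was also lost without Lung-LMP1 replicate 1, 2 or 3 (0.116, 0.0661 and 0.125), LMP1 replicate 1 or 2 (0.0589 and 0.0592) or Ctr replicate 1 (0.0511), with the length and GC correction (0.0571) and with only these groups in the fit (0.0555). The Bid call was lost without Lung-LMP1 replicate 1 or 3 (adjusted p = 0.106 and 0.0778) or any 1 comparator library (0.0833, 0.0517 and 0.0629). Haematopoietic markers (8 genes, such as Ptprc and Lyz2) summed to 71.6 to 299.4 CPM in the comparator and 8.14 to 41.7 in the tumour libraries. Basal and squamous markers summed to 4807 to 25000 CPM in the comparator and to 1724 to 5795 in Ctr, Lung-Ctr and Lung-LMP1, whereas the LMP1 libraries held 136.5 and 203. Mesenchymal markers summed to 6.07 to 17.0 CPM in the comparator, against 1082 and 1469 in LMP1. The part of these markers in the comparator results was not tested.

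**Figure D4:**
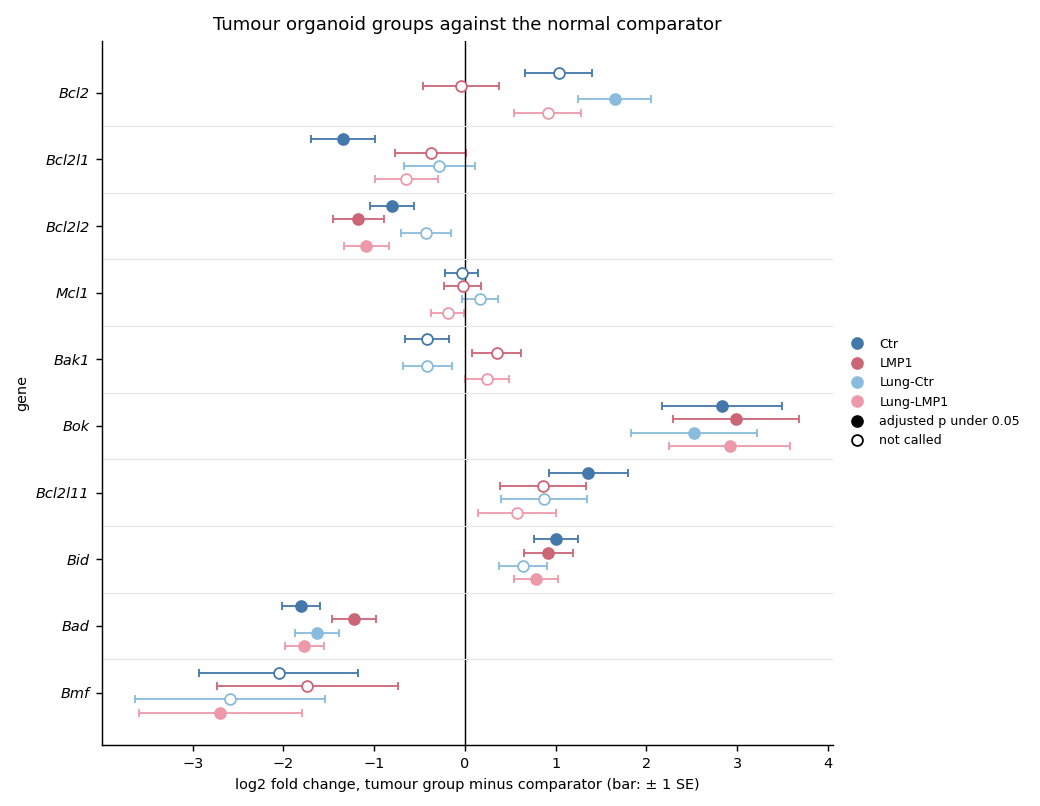
Log2 fold changes of the 10 genes (horizontal axis, tumour group minus normal comparator, bars ± 1 SE) for the 4 tumour groups, which share the 3 comparator libraries. Filled points passed an edgeR adjusted p of 0.05. Bok lies between 2.53 and 2.99 and Bad between -1.81 and -1.22 in the 4 groups, all filled, while Mcl1 is open and within 0.19 of 0 in each.

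Normal_nasopha against Normal_lung compares the untreated tissues in the table that counts by Ensembl entry. Bcl2l1 was the clearest difference: 101.2, 70.6 and 75.6 CPM in Normal_nasopha against 228, 246 and 246 in Normal_lung, a log2 fold change of -1.69 ± 0.19 (SE; edgeR adjusted p = 0.00123) that held in all 11 alternatives. Bcl2 went the other way, with 11.6, 4.6 and 11.98 CPM against 1.84, 2.66 and 1.02 (2.20 ± 0.52 SE, edgeR adjusted p = 0.0192). Bad was lower in Normal_nasopha, at 32.3, 31.2 and 29.6 CPM against 44.4, 48.1 and 51.9 (-0.78 ± 0.16, edgeR adjusted p = 0.0117). Bcl2l2 was also lower (-0.69 ± 0.19, edgeR adjusted p = 0.0317) and Bid higher (0.64 ± 0.19, edgeR adjusted p = 0.0389). In all 5 of the 10 genes were called, against 31.1% of all 15886 genes tested, whose median log2 fold change was 0.13. The effectors were not called by edgeR: Bok read 14.1, 1.79 and 4.46 CPM against 1.54, 2.37 and 1.26, overlapping, and Bak1 18.0, 29.4 and 14.2 against 11.5, 16.4 and 15.9. DESeq2 called Bok higher (1.79, adjusted p = 0.0484) and Bcl2l11 lower (-0.95, adjusted p = 0.0271). In the authors' deposited table Bok (1.79, adjusted p = 0.0433) and Bcl2l11 (-0.95, 0.038) were called beside the 5 called by edgeR. Over all genes, 6219 of the 20061 with an adjusted p in that table were called. Bmf read 4.93, 5.57 and 34.6 CPM in Normal_nasopha and 32.9 to 43.8 in Normal_lung, and without Normal_nasopha replicate 3 it was called lower (-3.06, adjusted p = 0.00181).

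Several of these calls ended without 1 library. The Bcl2 call was lost without Normal_nasopha replicate 3 or Normal_lung replicate 1 or 3 (edgeR adjusted p = 0.0537, 0.0695 and 0.0742), and the Bad call without Normal_lung replicate 3 (0.0791). The Bcl2l2 call was lost without any 1 library other than Normal_nasopha replicate 3 (0.0551 to 0.125), and the Bid call without any 1 library other than Normal_nasopha replicate 1 (0.0607 to 0.147). Without Normal_nasopha replicate 3 Bcl2l11 was called lower (-1.34, adjusted p = 0.00795), and without Normal_nasopha replicate 2 Bok was called higher (2.25, adjusted p = 0.0313). Haematopoietic markers summed to 1672 to 2920 CPM in Normal_lung and 60.4 to 273 in Normal_nasopha, with Lyz2, which alveolar epithelium also expresses, at 2353 CPM on average in Normal_lung and Cd3e at 0 in all 3 of its libraries. The part of other cells in the differences between these tissues was not tested.

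The rest of the death pathway was read from 56 listed symbols, of which 48 were tested in the tumour fits. In LMP1 against Ctr 2 rose and 5 fell, a share near the 16.4% of all genes tested. Bax, the effector gene closest to Bak1 in function, was higher (1.15 ± 0.24 SE, edgeR adjusted p = 0.0157), as was Bbc3, the gene of the BH3-only protein PUMA (2.14 ± 0.45, adjusted p = 0.0179). Pmaip1, which encodes NOXA, a BH3-only protein that binds MCL1, was lower (-2.64 ± 0.69, adjusted p = 0.0346). Also lower were Xiap, an inhibitor of caspases (-0.88 ± 0.18), Usp9x, whose product removes ubiquitin from MCL1 (-0.68 ± 0.13), and Bcl2l15 (-4.35 ± 1.13), at edgeR adjusted p of 0.0156, 0.0137 and 0.0336. In Lung-LMP1 against Lung-Ctr 0 of the 48 were called by edgeR, with 4 at an unadjusted p under 0.05, and Bax differed by 0.90 ± 0.25 (edgeR adjusted p = 0.147).

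Against the comparator, 9 of the 48 were higher and 4 lower in Ctr, 8 and 4 in Lung-Ctr, 4 and 5 in LMP1, and 9 and 3 in Lung-LMP1. Over all genes tested the shares called were 35.1%, 27.4%, 28.2% and 32%, and in each of the 4 comparisons that of the listed genes was below it. Bax and Bbc3, both known p53 targets, were among them: Bax averaged 218 ± 28.5 CPM in the comparator (SD, n = 3) and 29.5 ± 6.40 in Ctr, a log2 fold change of -2.96 ± 0.23 (SE; edgeR adjusted p = 5.12e-05), and was lower in the other 3 tumour groups too, by -1.76 ± 0.26, -3.15 ± 0.28 and -2.24 ± 0.22 in LMP1, Lung-Ctr and Lung-LMP1. Bbc3 was called lower in Ctr (-2.59 ± 0.51, edgeR adjusted p = 0.00364), Lung-Ctr and Lung-LMP1. The part of Trp53 loss in the Bax and Bbc3 differences was not tested. Casp2, a caspase linked to DNA damage, and Vdac2, a channel of the outer membrane that holds BAK1, were called higher in all 4 groups, at 1.48 ± 0.20 and 0.90 ± 0.16 in Ctr (SE; edgeR adjusted p = 0.000631 and 0.00232). Usp9x and Xiap were called higher in all but LMP1. Between the normal tissues 5 of 46 tested were higher in Normal_nasopha and 7 lower, a share below the 31.1% of all genes tested, and the largest was Pmaip1, at 114 ± 31.3 CPM against 1.53 ± 0.785 in Normal_lung (SD, n = 3 each; 6.06 ± 0.46 SE, edgeR adjusted p = 0.000334).

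Likeness across libraries is given as a description over the 10 tumour libraries and 12631 genes, which share library depth and composition. Among the members themselves, the highest Pearson r of log2 CPM was 0.60, between Mcl1 and Bcl2l2, and the lowest -0.67, between Bcl2l2 and Bak1. The genes most like Bcl2 were Pls3 (r = 0.95), an actin-bundling protein, and Gpkow (r = 0.95). Pls3 read 129 and 131 CPM in LMP1, against 268 to 715 elsewhere among tumour libraries, so its lowest libraries were those of Bcl2. For Bcl2l1, Tm7sf2 (r = 0.95), a sterol reductase, was highest in Lung-Ctr replicate 1 at 22.2 CPM, as Bcl2l1 was. For Mcl1 they were Pak3 (r = 0.93) and Zfp941 (r = 0.87).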

How the data were processed

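STAR, DESeq2, DESeq and the build mm10 are named in the submitters' processing notes. Versions, the counting tool and its annotation were not given in the sources used here. Raw read counts per gene, as deposited by the authors, were the values tested. The authors also deposited, per the file headers, log2 fold changes and adjusted p-values of their own comparisons, quoted only as those of their table. A further 32 deposited columns of scaled values for the same libraries were not used, and 26 of 27 symbols that had become dates were restored from the annotation. CPM used each library's total count, and CPM per kilobase the union of GENCODE vM21 exons. The test was that of edgeR 4.0.16 (R 4.3.3): filterByExpr by group, TMM normalisation, robust quasi-likelihood F-test, 1 mean per group and Benjamini-Hochberg adjustment over all genes tested, at an adjusted p under 0.05. The tumour fit used 10 libraries (13460 genes, 6 residual degrees of freedom), the comparator fit 13 (14096 genes, 8) and the normal fit 6 (15886 genes, 4). The test was tried on simulated data. Alternatives were DESeq2 1.42.0, size factors by RLE, low counts kept, the replicate number as a block, a length and GC correction by smooth offsets per library (mgcv 1.9.3), only the groups compared, and each library left out.

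The members and the pathway and marker lists were chosen with earlier results of these data known. All 10 members are named. Other genes are named only from the pathway and marker lists, if called or at a list's extreme, or, for Bcl2, Bcl2l1 and Mcl1, as the 2 genes of highest Pearson r. Some genes that this rule names are not reported here, and counts of listed genes include them.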

Additional observations from a re-analysis of the deposited data

How the results depend on the processing

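RLE size factors, or no filter on low counts, kept each comparison's count of called members within 1.5 times the main count, and no called direction reversed. Without the filter, Bid lost its call between the normal tissues (edgeR adjusted p = 0.0995) and Bcl2l11 was called (0.0464). DESeq2 called 1 member in Lung-LMP1 against Lung-Ctr and 1 in Lung-LMP1 against LMP1, where edgeR called 0 in each. Against the comparator DESeq2 also called Bcl2 (adjusted p = 0.0269) and Bmf (0.0361) in Ctr and Bmf (0.0216) in Lung-Ctr. Between the normal tissues it also called Bok (0.0484) and Bcl2l11 (0.0271). With only the groups compared in the fit, LMP1 against Ctr gave 0 calls, Lung-LMP1 against LMP1 1, LMP1 against the comparator 2 and Lung-Ctr against the comparator 0, from fewer libraries. The length and GC correction gave 0 in LMP1 against Ctr. Leaving out 1 library gave 0 to 2 calls in LMP1 against Ctr, 0 to 1 in Lung-LMP1 against LMP1, 4 to 6 in Ctr, 0 to 4 in LMP1, 1 to 4 in Lung-Ctr and 3 to 5 in Lung-LMP1 against the comparator, and 1 to 5 between the normal tissues. Deviations of same-numbered libraries from their group means correlated at -0.35 to 0.17 in the tumour fit, -0.33 to 0.17 in the comparator fit and -0.20 to -0.10 in the normal fit. For different-numbered libraries the values were -0.47 to 0.42, -0.45 to 0.41 and -0.09 to 0.17. Deviations within groups of 2 or 3 must sum to 0, so this check cannot tell whether replicate numbers pair the samples. With the replicate block, LMP1 against Ctr gave 0 calls (Bcl2 0.109, Bak1 0.0894, edgeR adjusted p), Lung-LMP1 against the comparator 3 (Bid 0.0631 and Bmf 0.106 lost) and the normal tissues 1. In Ctr against the comparator the block ended the Bcl2l2 and Bcl2l11 calls (0.0513 and 0.0657) and Bcl2 passed (0.0448), and in LMP1 it ended that of Bid (0.0621). Over all genes, LMP1 against Ctr gave 2210 calls, from 25 without LMP1 replicate 1 to 3576 by DESeq2, Lung-LMP1 against Lung-Ctr 0 to 881, Lung-Ctr against Ctr 0 to 40, Lung-LMP1 against LMP1 1361 (33 without LMP1 replicate 1, 2682 with only its groups) and the interaction 120 (2 with the block, 926 by DESeq2). Against the comparator the lowest counts were 2917 of 4944 in Ctr, 736 of 3980 in LMP1, 168 of 3861 in Lung-Ctr and 2354 of 4516 in Lung-LMP1, and between the normal tissues 2657 of 4935. Causes were not tested. The longest transcript length moved 17 of 28 survival shares by more than their SD. Groups of 2 or 3 libraries limit what can be called.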
